A study of Arabidopsis thaliana with 48 samples.

Results

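The chloroplast genome of *Arabidopsis thaliana* was followed through 2 FPKM tables, for leaves and for roots, by taking every gene ID that starts with ATCG. That prefix marks 133 of the 33977 IDs in each table. Of these members, 73 were tested in leaves and 65 in roots, and all 65 were also tested in leaves. In leaves 56 members were listed at 0 in every library, and 4 more were above 0 but too low to be tested. In roots 57 were listed at 0 throughout and 11 were above 0 but too low. An exact 0 in a table without counts can also be a failed estimate, so these IDs are described only as listed at 0.

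The chloroplast keeps a small circular genome that encodes core subunits of the photosystems, the cytochrome b6f complex, ATP synthase, the NDH complex and the large subunit of Rubisco, together with ribosomal proteins, subunits of a plastid RNA polymerase, rRNAs and tRNAs. Many of its genes are transcribed together as long precursor RNAs that are then cut and edited with the help of nuclear-encoded proteins. Plastid RNAs mostly lack the long poly(A) tails of nuclear mRNAs, and the libraries here were made from poly(A)-selected RNA, so a level describes the chloroplast RNA that was captured and not the whole pool. The reference chloroplast sequence of RefSeq (TAIR10.1) is 154478 bp long and lists 85 protein-coding genes, 37 tRNA genes and 7 rRNA genes, with 7 protein-coding symbols listed again in an inverted repeat of 26264 bp. Neither the tables nor that annotation pairs the ATCG IDs with gene symbols. Annotation notes name only 6 of them: ATCG00430 (photosystem II reaction center protein G), ATCG00530 (a CemA-like protein, CemA being a protein of the chloroplast envelope), ATCG00660 (ribosomal protein L20), ATCG00670 (the plastid-encoded ClpP, a subunit of the Clp protease), ATCG00750 (ribosomal protein S11) and ATCG01310 (ribosomal protein L2). These names are those of the notes and were not checked here. All other members are given by ID alone.

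The study compared 3 genotypes, each as spaceflight (FT) plants grown in the Veggie unit on the International Space Station and as ground control (GC) plants grown in the same hardware at Kennedy Space Center. The genotypes were wild-type Col-0, *elp2-5*, a mutant of the Elongator subunit gene ELP2, and *met1-7*, a mutant of the DNA methyltransferase gene MET1, both in the Col-0 background. Seedlings grew for 11 days under constant light, were fixed in RNAlater and were dissected, and each of the 12 groups of organ, genotype and environment had 4 libraries. Plants were pooled, and plates were combined in pairs into replicates, except for 1 *met1-7* spaceflight replicate that came from a single plate. The labels do not say whether replicate numbers mark shared plates, and they do not say which leaf and root libraries came from the same plants.

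ELP2 reached 3.24 to 3.99 FPKM in *elp2-5* leaves against 7.38 to 9.13 in Col-0 leaves, and 4.23 to 5.78 against 10.66 to 14.75 in roots. MET1 ranges overlapped between *met1-7* and Col-0 in both organs, so this transcript did not check that label. The 8 leaf markers each averaged at least 1 FPKM in every leaf group, and their sum was at least 24688.5 FPKM in each leaf library. Of 8 root markers, only PYK10, a root β-glucosidase, averaged over 1.08 FPKM in any leaf group. Over all genes, libraries summed to 930848 to 967260 FPKM in leaves and 834583 to 938877 in roots. The highest root total was that of *elp2-5* GC replicate 2, and the next was 878110. FPKM keep no absolute depth, but the steps between low values put the libraries' relative depth at 0.852 to 1.163 in leaves and 0.872 to 1.142 in roots. That estimate used only genes seen in few libraries within a narrow range of values, so it could miss larger differences in depth.

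In leaves a few members made up most of the captured chloroplast RNA. ATCG00470 averaged 4217 FPKM over the 24 leaf libraries, ATCG00480 3388 FPKM and ATCG00790 3094 FPKM, and these 3 held 43.0% of the summed member FPKM. The next 3 were ATCG00800 at 1674 FPKM, ATCG00780 at 1579 and ATCG00330 at 1190. At the other end, 22 tested members averaged between 10 and 100 FPKM and 20 averaged below 10. The pattern in roots was different in its order as well as its height. The highest root member was ATCG00790 at 546.3 FPKM, and 7 members averaged at least 100. The 7 consecutive IDs ATCG00770 to ATCG00830 held 51.5% of the member sum in roots (46.6% to 56.5% per library) and 35.5% in leaves (30.4% to 38.1%). The neighbours ATCG00470 and ATCG00480 held 14.7% in roots and 30.6% in leaves. These ranges did not overlap between organs for either set.

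Some members cannot be read one at a time. In 8 pairs of IDs the listed values were above 0 and equal to 2 decimals in at least 12 of the 48 libraries. The pairs were ATCG00830 with ATCG01310, ATCG00840 with ATCG01300, ATCG00860 with ATCG01280, ATCG00890 with ATCG01250, ATCG00900 with ATCG01240, ATCG00905 with ATCG01230, ATCG00920 with ATCG01210 and ATCG00950 with ATCG01180. Reads that match near-identical copies have to be divided by the counting step, and in some libraries the division was far from even. ATCG00900 ranged from 9.75 to 521.94 FPKM over the leaf libraries and ATCG01240 from 0.39 to 482.56, while their sum ranged from 304.0 to 639.3. The coefficient of variation within groups was 61.4% and 70.2% for the single IDs and 10.7% for their sum. For ATCG00830 and ATCG01310, ribosomal protein L2, it was 35.9% and 32.9% against 10.9%. Single values of these 16 IDs are therefore uncertain, and no single value of them is used below. With each pair summed into 1 row, the counts of called members below kept within 1.5 times, for example 12 lower in Col-0 leaves in flight and 46 lower in *elp2-5* leaves on the ground. ATCG00870 and ATCG01270 also had equal values in all 48 libraries, but were above 0 in only 7 leaf and 3 root libraries. They were not counted as a pair or summed, and both stayed among the members tested in leaves.

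**Figure D1:**
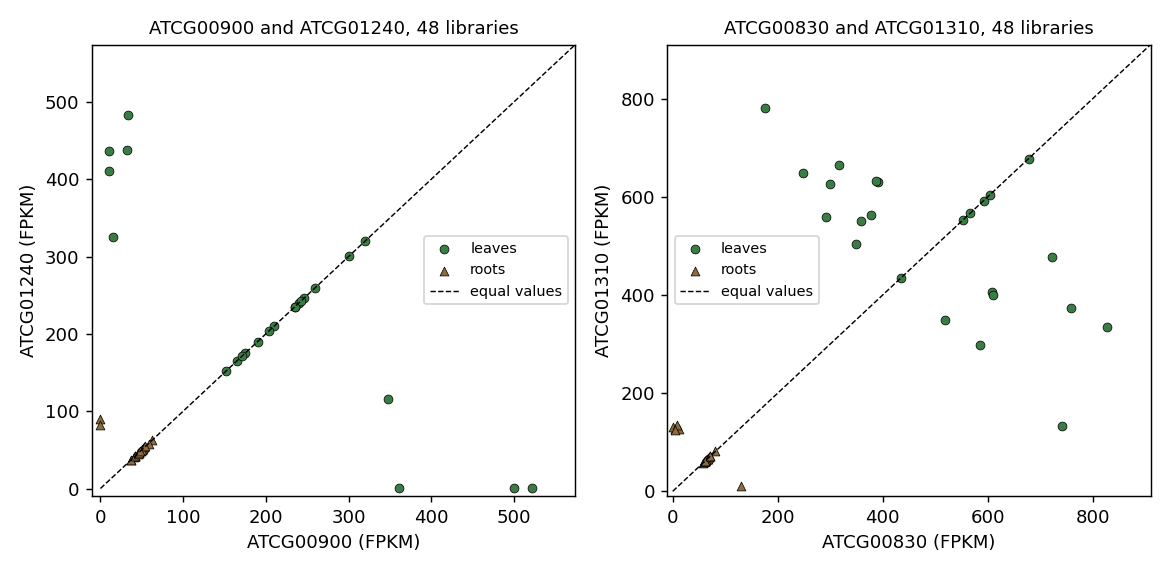
FPKM of the paired IDs ATCG00900 and ATCG01240, and ATCG00830 and ATCG01310, in each of the 48 libraries. Points on the diagonal have equal values, and points far from it have nearly all of the pair's signal on 1 ID, as where ATCG01240 fell to 0.39 FPKM.

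The summed FPKM of all members gave a level for each library, and is reported as a description with no test. Col-0 leaves had sums of 26336.6, 21714.8, 21684.0 and 22428.8 FPKM in FT and 24829.9, 32450.3, 27408.3 and 28305.3 in GC, or 23041 ± 2224 and 28248 ± 3165 (SD, n = 4). Only FT replicate 1 overlapped the GC range. In *elp2-5* leaves the order was the opposite, with 22640.5, 25005.4, 22730.2 and 20081.0 in FT and 20011.3, 20492.7, 20483.9 and 20807.5 in GC. These ranges overlapped through FT replicate 4, and the GC libraries had the narrowest spread of any leaf group (20449 ± 328). In *met1-7* leaves FT (27124 ± 676) and GC (27625 ± 1486) overlapped. Ordered by mean, the leaf groups ran from Col-0 GC through *met1-7* GC, *met1-7* FT, Col-0 FT and *elp2-5* FT to *elp2-5* GC. Neighbours in that order overlapped at each step except *met1-7* FT against Col-0 FT, where the *met1-7* libraries began at 26753.8. The members' share of all FPKM was 2.13% to 3.36% per leaf library.

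**Figure D2:**
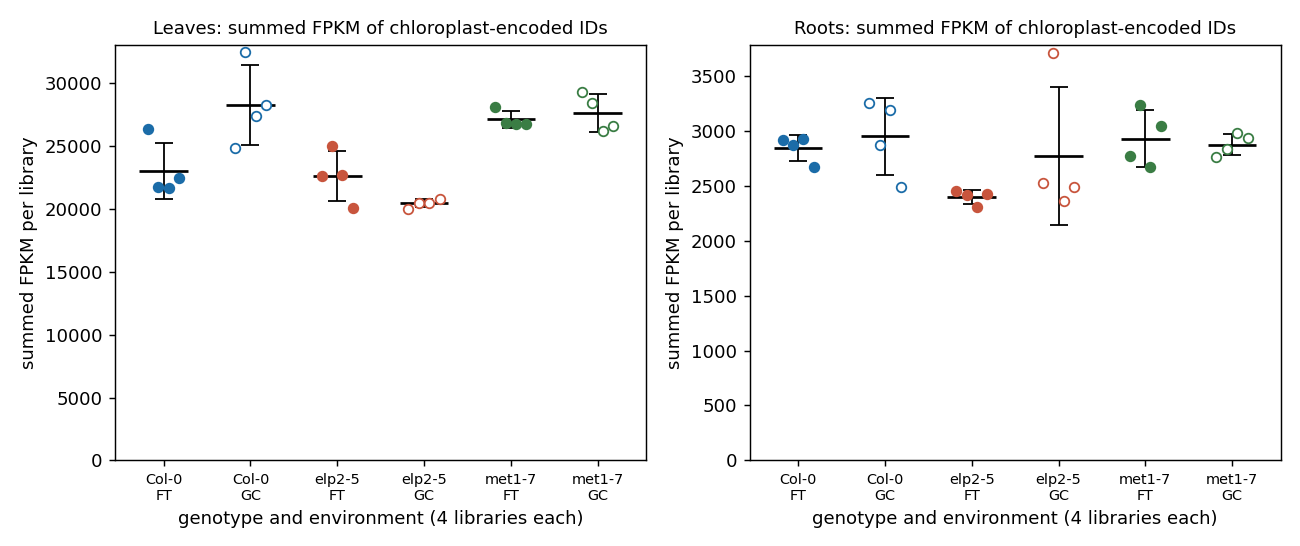
Summed FPKM of the 133 chloroplast-encoded IDs in each library, by group, for leaves and for roots, with the group mean and SD. *elp2-5* GC leaves lie lowest at 20011.3 to 20807.5 FPKM, and 1 *elp2-5* GC root library stands at 3707.0 FPKM above all other root libraries.

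Leaves held 8.85 times the summed member FPKM of roots in Col-0 (25645 against 2899), 8.33 times in *elp2-5* and 9.43 times in *met1-7*. The leaf and root tables were deposited separately, with FPKM scaled within each library, and a joint limma fit of all 48 libraries on log2(FPKM + 0.5) was used for the organs. In Col-0 67 of 74 members were higher in leaves and 0 were lower at an adjusted p below 0.05, where 23.3% of all genes tested were higher and 64.7% were called lower. The count of 64 in *elp2-5* stood against 26.3% of all genes higher and 59.3% lower, and the count of 67 in *met1-7* against 23.7% and 64.6%, again with 0 members lower. The median member difference was 2.58 on the log2 scale in Col-0, against a median of −0.50 over all genes. In these bulk samples fewer chloroplast-bearing cells and less chloroplast RNA per cell cannot be told apart.

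The organ difference was uneven among members. Over the 65 members tested in both organs the ratio of mean leaf to mean root FPKM had a median of 6.74 and ran from 1.05 to 103. ATCG00420 was at the top (128.9 against 1.24 FPKM), followed by its neighbour ATCG00430 (275.0 against 3.27 FPKM). ATCG00430 was higher in leaves by 6.31 (SE 0.13) on the log2 scale in Col-0 (6.17 in *met1-7* and 6.18 in *elp2-5*). The adjacent ATCG00440 had a ratio of 42.9 and ATCG00270 of 40.6. At the other end ATCG00500 stood at 1.24 FPKM in leaves and 1.18 in roots, and its difference in Col-0 was 0.19 (adjusted p = 0.251). ATCG01010 had a ratio of 2.93. Both ribosomal proteins with a note and no near-identical copy were higher in Col-0 leaves, ATCG00660 by 2.34 and ATCG00750 by 2.00 on the log2 scale. ATCG00670 (ClpP) was higher by 2.93 and ATCG00530 (CemA-like) by 3.01.

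**Figure D3:**
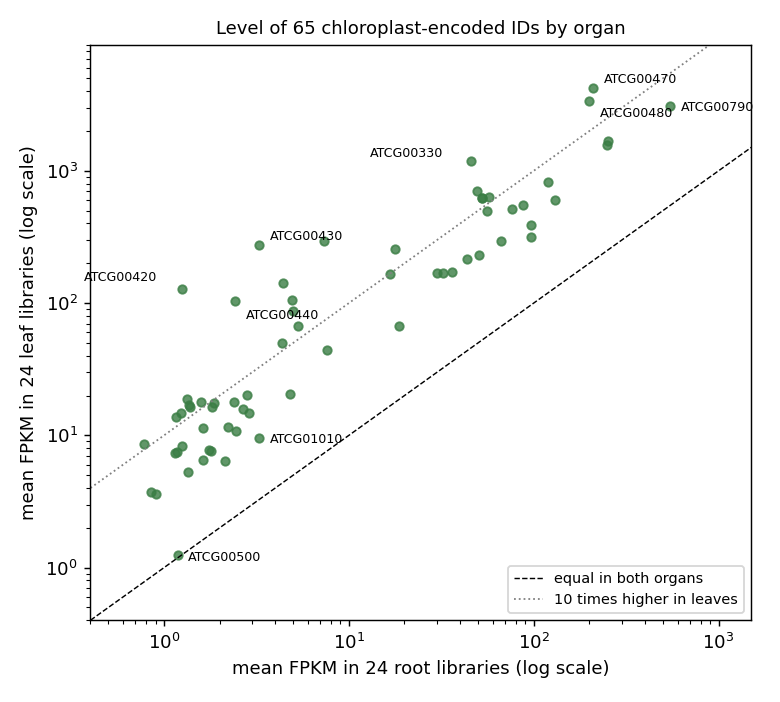
Mean FPKM over the leaf libraries against mean FPKM over the root libraries for each of the 65 members tested in both organs, both axes on a log scale, with a dashed line of equality and a dotted line 10 times above it. Nearly all members lie above the line of equality, with ATCG00420 and ATCG00430 farthest from it and ATCG00500 on it.

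In Col-0 leaves 12 of 73 members were lower in FT than in GC and 0 were higher (limma, 6 leaf groups in 1 fit). Over all genes tested 3.15% were lower and 8.71% higher. The median member difference was −0.28 on the log2 scale against 0.05 over all genes, 32 of 73 members had an unadjusted p below 0.05 against 5520 of 19877 genes, and 6 members lay lower in every FT library than in any GC library, which held for 5.32% of all genes. None of the 12 reached 2-fold, the minimum that the study's rule for differentially expressed genes (DEGs) adds, and 0.0956% of genes were lower by that rule.

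ATCG00470, the most abundant member, had 3899.99, 3406.22, 3850.45 and 4326.13 FPKM in FT and 4796.64, 5697.55, 4762.32 and 5401.65 in GC. All FT libraries were below all GC libraries, and the member fell by 0.42 on the log2 scale (SE 0.08, limma adjusted p = 0.00372). Its neighbour ATCG00480 fell by 0.28 (adjusted p = 0.017). ATCG00020 had 92.87, 102.41, 82.97 and 69.62 FPKM in FT and 130.61, 144.04, 112.18 and 146.59 in GC, again with no overlap. It fell by 0.62 (SE 0.19, adjusted p = 0.0355), a call kept in 3 of 8 fits that left out 1 library. ATCG00530, the CemA-like gene, had 7.23, 8.16, 7.24 and 5.63 FPKM in FT and 8.52, 13.48, 11.61 and 10.21 in GC, and fell by 0.59 (adjusted p = 0.018). ATCG00430 stood at 278 ± 27.7 against 333 ± 43.3 FPKM (SD, n = 4), a difference of −0.25 (adjusted p = 0.0501).

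The number of Col-0 leaf members that fell depended on single libraries, and in each of these fits 0 members rose. It was 20 without FT replicate 1, 7 without FT replicate 2, 4 without FT replicate 3 and 5 without FT replicate 4. On the GC side it was 21 without GC replicate 1, 1 without GC replicate 2, 9 without GC replicate 3 and 7 without GC replicate 4. A fit of the 8 Col-0 leaf libraries alone called 0. PYK10, the only root marker tested in leaves, rose in Col-0 FT leaves by 0.62 (limma adjusted p = 0.0124). The summed root markers were 281.3 to 378.7 FPKM in FT and 191.0 to 256.4 in GC. Nearly all of this was PYK10, at 337.0 of a mean sum of 338.1 FPKM in FT and 218.8 of 219.6 in GC. Every other root marker averaged at most 0.47 FPKM in Col-0 leaves, and IRT1 was listed at 0 in all Col-0 FT leaf libraries. The 8 leaf markers summed to 30167.6 to 39065.7 FPKM in FT and 35385.1 to 37385.7 in GC. The part of these markers in the result was not tested.

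In *elp2-5* leaves the called members went the other way: 5 of 73 were higher in FT and 0 were lower, where 0.644% of all genes were higher and 0.156% lower. The median member difference was 0.20 against 0.03 over all genes, and 14 members lay higher in every FT library than in any GC library, which held for 5.96% of genes. ATCG00040 had 10.12, 10.63, 10.22 and 9.67 FPKM in FT and 6.97, 6.47, 5.07 and 6.33 in GC. Every FT library was above every GC library, and the member rose by 0.68 (SE 0.10, limma adjusted p = 0.00233). ATCG00420 rose by 0.58 (adjusted p = 0.0118), and its neighbour ATCG00430 rose from 194 ± 5.52 to 253 ± 18.9 FPKM, by 0.37 (adjusted p = 0.0359). ATCG00670 (ClpP) stood at 18.8 ± 4.19 FPKM in FT and 12.3 ± 1.16 in GC, a difference of 0.57 whose adjusted p was 0.0549. The count of 5 was 2 without FT replicate 2, 2 without FT replicate 3, 1 without GC replicate 1, 3 without GC replicate 2, 2 without GC replicate 3 and 2 without GC replicate 4.

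The test of the difference between the flight responses of *elp2-5* and Col-0 leaves called 1 of 73 members, ATCG00040, and 0.0151% of all genes. In Col-0 ATCG00040 had 6.04, 7.53, 7.37 and 5.97 FPKM in FT and 7.17, 8.37, 9.33 and 8.61 in GC, a difference of −0.30 (adjusted p = 0.0552). The responses differed by 0.97 on the log2 scale (SE 0.14, adjusted p = 0.0152), and the call held in 11 of 16 fits that left out 1 library, its adjusted p reaching 0.0589. The count of 1 became 0 without any 1 of Col-0 FT replicate 4, Col-0 GC replicates 2, 3 and 4 or *elp2-5* FT replicate 3, 2 without Col-0 FT replicate 1 or *elp2-5* FT replicate 4, and 4 without Col-0 GC replicate 1. Without adjustment 33 members had p below 0.05, as did 1937 of 19877 genes, and 63 of 73 members had a difference above 0. The median difference was 0.49 over the members and −0.01 over all genes. All members were read from the same libraries, so their directions are not separate observations. ATCG00430 differed by 0.63 (adjusted p = 0.0823) and ATCG00670 by 0.92 (adjusted p = 0.181), neither past the threshold.

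**Figure D4:**
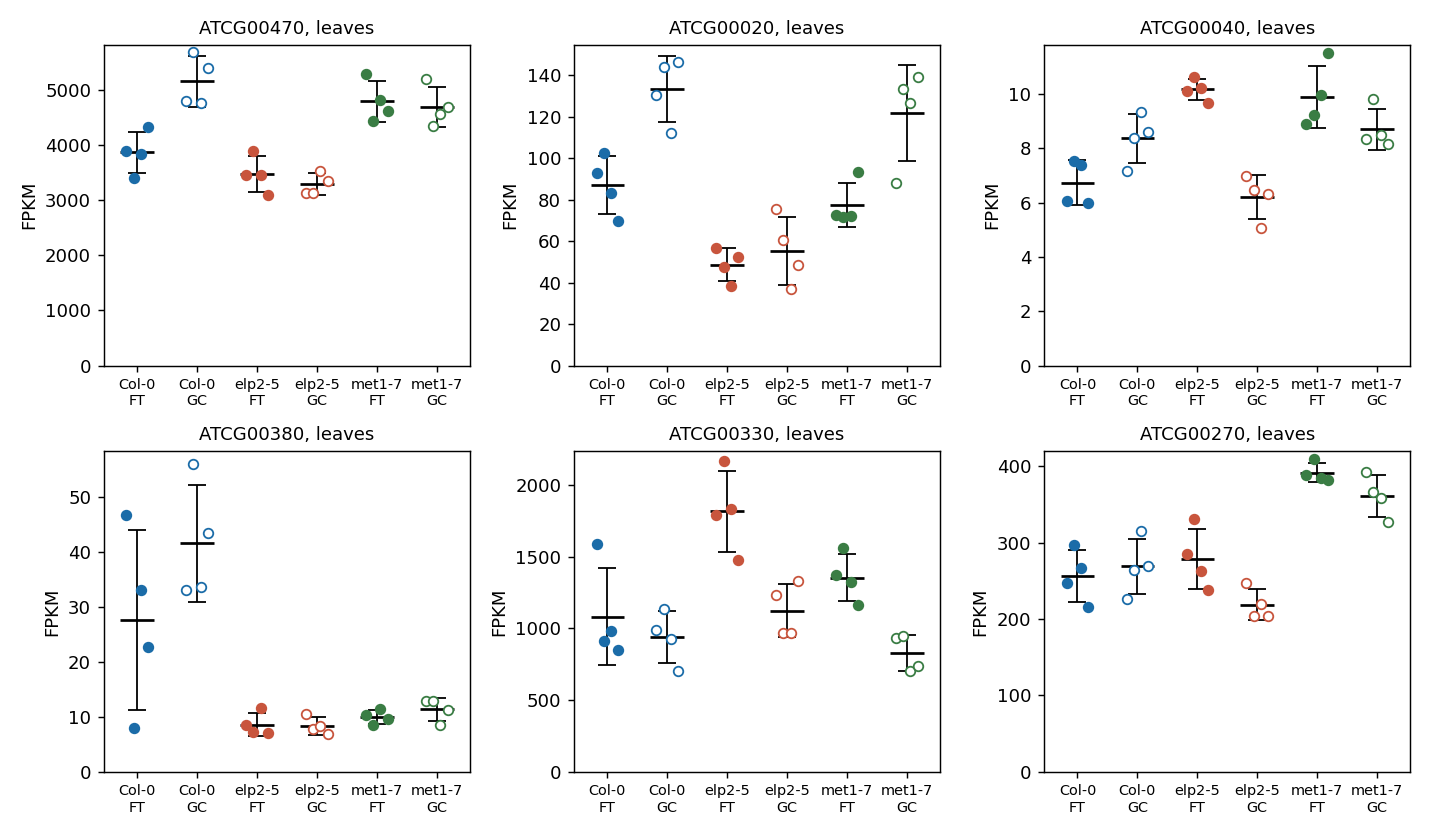
FPKM of 6 members in each leaf library by genotype, with filled points for FT, open points for GC and black bars for the mean and SD. ATCG00040 is higher in FT than GC in *elp2-5* without overlap, and ATCG00380 is at most 12.87 FPKM in all libraries of both mutants.

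In *met1-7* leaves 2 of 73 members were higher in FT and 3 were lower, against 9.53% and 3.38% of all genes tested. ATCG00330, another of the most abundant members, had 1370.26, 1561.04, 1321.27 and 1160.06 FPKM in FT and 929.4, 946.95, 700.66 and 739.48 in GC. It was higher in all 4 FT libraries and rose by 0.71 (SE 0.18, limma adjusted p = 0.0147). The same member stood at 1472.92 to 2163.2 FPKM in *elp2-5* FT leaves and 965.79 to 1331.4 in GC, without overlap, where its difference of 0.69 missed the threshold (adjusted p = 0.0711). In Col-0 its difference was 0.18 (adjusted p = 0.563). ATCG00160 rose in *met1-7* by 0.53 (adjusted p = 0.0137). ATCG00020 had 72.71, 71.65, 71.98 and 93.35 FPKM in FT and 88.04, 133.48, 126.76 and 138.94 in GC, and fell by 0.64 (adjusted p = 0.0294), a call kept in 2 of 8 fits that left out 1 library. ATCG00490 fell by 0.42 (adjusted p = 0.0476), kept in 2 of 8. The count of 5 was 2 without any 1 of FT replicates 1, 2 and 3 or GC replicates 2, 3 and 4. The test of the difference between the *met1-7* and Col-0 flight responses called 0 members in limma, with 12 of 73 at an unadjusted p below 0.05 against 2095 of 19877 genes.

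On the ground, *elp2-5* leaves had less captured RNA than Col-0 leaves from most of the chloroplast members tested. Of 73 members 47 were lower and 0 were higher, where 14.1% of all genes tested were lower and 37.6% higher. The median member difference was −0.53 against 0.14 over all genes. The latter shift was 0.007 after median-ratio scaling, under which 52 members were lower. The 47 were spread over all levels: 20 of the 31 members at or above 100 FPKM, 14 of the 22 between 10 and 100 FPKM, and 13 of the 20 below 10 FPKM. In 35 members every *elp2-5* library lay below every Col-0 library, against 12.2% of genes. Only 4 were at least 2-fold lower by the DEG rule, against 1.32% of genes. With each of the 8 libraries left out in turn, between 34 and 50 members were called. The Col-0 GC leaf libraries are shared by this comparison and by the Col-0 flight comparison, so a low or high value there enters both.

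ATCG00470 had 3130.34, 3140.58, 3540.31 and 3357.32 FPKM in *elp2-5* GC leaves, all below the Col-0 GC values given above, and fell by 0.65 (SE 0.08, limma adjusted p = 2.49e-06). ATCG00430 fell by 0.77 (194 ± 5.52 against 333 ± 43.3 FPKM, adjusted p = 2.74e-07). Among the other members with a note, ATCG00670 (ClpP) fell by 0.66 (adjusted p = 0.00053), ATCG00530 (CemA-like) by 0.53 (adjusted p = 0.00725) and ATCG00750 (ribosomal protein S11) by 0.38 (adjusted p = 0.0207). ATCG00660, ribosomal protein L20, did not pass the test (0.41, adjusted p = 0.516), at 9.71 to 14.1 FPKM in 3 *elp2-5* libraries and 5.23 in the other. Among called members the largest falls were those of ATCG00360, by 2.43 at a low level (mean 0.12 against 2.99 FPKM, adjusted p = 0.00171), and ATCG00380. ATCG00300, which did not pass the test (−4.72, adjusted p = 0.0644), was listed at 0 in 3 *elp2-5* GC libraries and at 41.03 FPKM in the other, against 22.44 to 64.8 in Col-0 GC.

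In leaves ATCG00380 stood out as a member that was lower in both mutants, which were compared with the same Col-0 libraries. Over the root libraries of all genotypes it ranged from 0.91 to 4.81 FPKM. Col-0 leaves had 46.75, 7.89, 33.04 and 22.68 FPKM in FT and 33.15, 55.91, 33.68 and 43.44 in GC. In *elp2-5* it had 8.59, 7.19, 11.56 and 7.01 FPKM in FT and 10.57, 7.78, 8.24 and 6.82 in GC, and in *met1-7* 10.37, 8.49, 11.48 and 9.69 in FT and 12.83, 12.87, 8.47 and 11.19 in GC. All 8 GC mutant libraries were below all Col-0 GC libraries, and in FT only Col-0 replicate 2 fell within the mutants' range. Against Col-0 it fell in GC by 2.23 in *elp2-5* (SE 0.35, limma adjusted p = 2.92e-05) and by 1.81 in *met1-7* (adjusted p = 0.00135). In FT it fell by 1.40 in *elp2-5* (adjusted p = 0.00233) and by 1.17 in *met1-7* (adjusted p = 0.0436), the last call kept in 1 of 8 fits that left out 1 library.

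In flight the difference between *elp2-5* and Col-0 leaves was smaller in number: 8 members were lower and 3 higher, where 14.9% and 35.5% of all genes were called. The median member difference was −0.01 against 0.12 over all genes. ATCG00020, lower by 1.30 in GC (adjusted p = 1.03e-05), was lower by 0.83 in FT (adjusted p = 0.000994), with 56.46, 47.39, 38.37 and 52.47 FPKM in *elp2-5* FT leaves, all below the Col-0 FT values. ATCG00040 went from 0.41 lower in GC (adjusted p = 0.00192) to 0.57 higher in FT (adjusted p = 8.6e-05). ATCG00330 was higher by 0.78 in FT (adjusted p = 0.00137), and ATCG01070 by 1.87 (adjusted p = 0.0196), the latter at 4.23 to 16.4 FPKM against 0 to 10.2 in Col-0. Markers differed between *elp2-5* and Col-0 leaves too. Of the 8 leaf markers 6 fell in GC and 5 in FT. Their sum was 27250.5 to 32156.4 FPKM in *elp2-5* GC and, as given above, higher in Col-0 GC. In FT their sum was 24688.5 to 32561.4 FPKM in *elp2-5*, which overlapped the 30167.6 to 39065.7 of Col-0. Root markers summed to 384.5 to 616.9 FPKM over the *elp2-5* leaf libraries, nearly all of it PYK10. The part of these markers in the result was not tested.

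**Figure D5:**
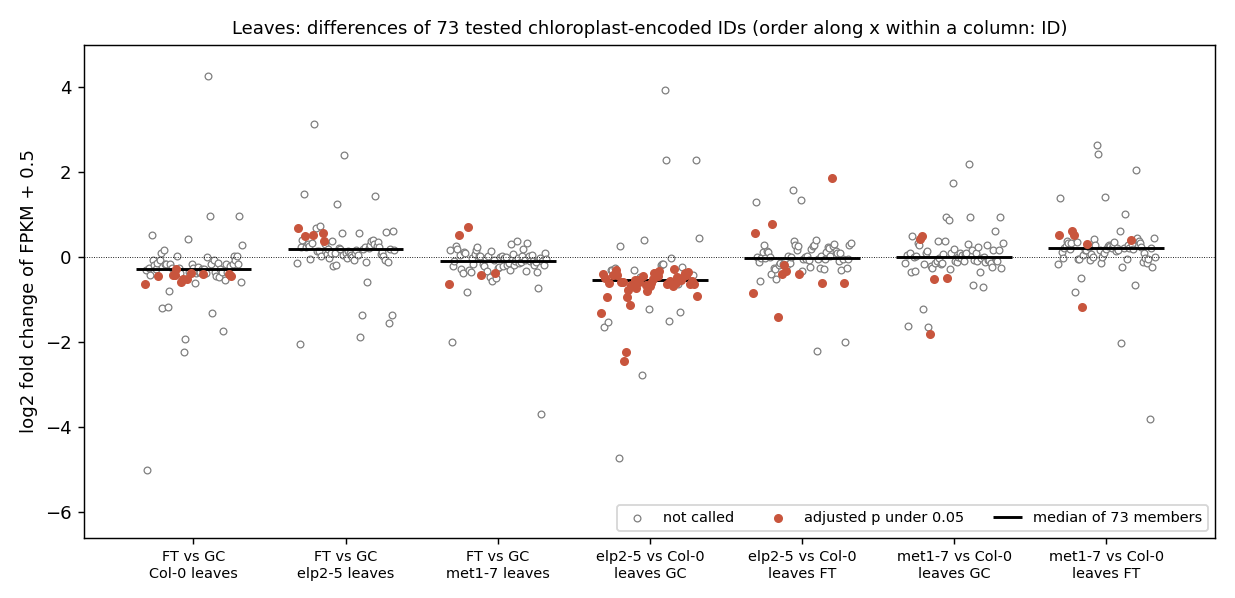
Log2 differences of the tested members in leaves, on the log2(FPKM + 0.5) scale with 1 point per member and comparison, filled red where the adjusted p was below 0.05, and a bar at the median. The *elp2-5* to Col-0 difference in GC is shifted down (median −0.53, 47 members called lower), and the same comparison in FT is centred near 0 (median −0.01).

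Between *met1-7* and Col-0 leaves 5 of 73 members were called in GC and 6 in FT. In GC 2 were higher and 3 lower, against 7.4% and 8.17% of all genes, and in FT 5 were higher and 1 lower, against 3.7% and 3.74%. The median member difference was −0.006 in GC, against −0.003 over all genes, and 0.22 in FT, against 0.02. ATCG00270 had 388.47, 409.9, 385.16 and 382.9 FPKM in *met1-7* FT leaves and 247.23, 296.89, 266.8 and 216.52 in Col-0 FT leaves. It was higher in all *met1-7* libraries by 0.62 (limma adjusted p = 0.000585), and in GC by 0.43 (adjusted p = 0.00742). ATCG00280 rose by 0.51 in GC and by 0.51 in FT. ATCG00040 was higher in FT by 0.52 (adjusted p = 0.00183) and ATCG00470 by 0.31 (adjusted p = 0.0246). The FT count of 6 was 10 without Col-0 FT replicate 1.

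In roots FT against GC called 0 of 65 members in Col-0 and 0 in *met1-7* by limma, where 2.9% and 1.19% of all genes were called. At an unadjusted p below 0.05 there were 5 of 65 members in each, against 4007 and 3801 of 21000 genes. In *elp2-5* 2 members were lower and 0 higher, against 3.21% and 3.57% of all genes. ATCG00790, the most abundant root member, had 392.52, 427.18, 391.65 and 358.27 FPKM in *elp2-5* FT roots and 459.68, 702.31, 482.59 and 468.74 in GC. It fell by 0.41 (adjusted p = 0.0316), and ATCG00780 fell by 0.31. GC replicate 2 was far above the other 3, and its summed member FPKM was 3707.0 against 2361.7 to 2523.3 in those. Without it 0 members were called and the adjusted p of ATCG00790 was 0.101. The count was also 0 without FT replicate 1, 3 or 4, 1 without GC replicate 1, and 0 in a fit of the 8 *elp2-5* root libraries alone. The tests of the difference from the Col-0 root response called 0 members in either mutant by limma, with 1 of 65 in *elp2-5* and 4 of 65 in *met1-7* at an unadjusted p below 0.05, against 2179 and 1331 of 21000 genes.

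Against Col-0 roots, 7 members were lower and 1 higher in *elp2-5* GC, where 19.8% and 18.9% of all genes were called, and 3 were lower and 1 higher in *elp2-5* FT, against 21.2% and 15.6%. The GC count of 8 was 12 without *elp2-5* GC replicate 2, and 5 without *elp2-5* GC replicate 3, Col-0 GC replicate 1 or Col-0 GC replicate 3. The FT count of 4 was 2 without Col-0 FT replicate 1. ATCG00790 had 607.49, 573.27, 561.89 and 524.69 FPKM in Col-0 FT roots, all above the *elp2-5* FT values, and fell by 0.53 in the mutant (adjusted p = 0.000653). ATCG00750, ribosomal protein S11, fell by 0.65 in GC (48.9 ± 15.0 against 74.9 ± 11.5 FPKM, adjusted p = 0.00399) and by 0.51 in FT (adjusted p = 0.0202).

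ATCG01010 was the member called higher than Col-0 in roots of both mutants and both environments, at a low level. It stood at 1.92 to 3.22 FPKM in Col-0 roots, 2.73 to 3.87 in *elp2-5* and 3.02 to 4.35 in *met1-7*. It rose in *elp2-5* by 0.39 in GC (limma adjusted p = 0.00891) and by 0.32 in FT (adjusted p = 0.0275, a call kept in 4 of 8 fits that left out 1 library, with adjusted p up to 0.103), and in *met1-7* by 0.53 in GC (adjusted p = 0.00459) and by 0.50 in FT (adjusted p = 0.00831). Both mutants were compared with the same Col-0 libraries. Against Col-0 *met1-7* roots had 2 members higher and 0 lower in GC, against 3.59% and 4.01% of all genes, and 1 higher in FT, against 2.67% of all genes. The second GC call was ATCG00640, with 0, 14.37, 14.65 and 25.98 FPKM in *met1-7* GC roots and a listed value of 0 in every Col-0 and *elp2-5* root library, so no fold is given. Its call (adjusted p = 0.0426) held in 1 of 8 fits that left out 1 library. That count of 2 was 1 without any 1 of the 4 Col-0 GC libraries or of *met1-7* GC replicates 2, 3 and 4.

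The DEG rule left few members in any comparison within an organ. Between leaves and roots it kept 66 (Col-0), 61 (*elp2-5*) and 66 (*met1-7*) of the members called there. It called 0 for FT against GC in leaves, where 0.247% (Col-0), 0.0402% (*elp2-5*) and 0.352% (*met1-7*) of all genes were called, and 0 in roots, where 0.081%, 0.186% and 0.0571% were called. Between *elp2-5* and Col-0 leaves it called 4 in GC and 2 in FT, against 5.51% and 5.94% of all genes, and between *met1-7* and Col-0 leaves only ATCG00380 in each environment, against 1.47% and 1.09%. It called 0 members in roots, where 3.73% and 3.98% of genes were called for *elp2-5* in GC and FT and 1.14% and 0.924% for *met1-7*. For the difference in the *elp2-5* leaf response it called 0, against 0.0101% of genes.

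Nuclear genes that serve plastid gene expression were read beside the members. A list of 26 held the sigma factors that give the plastid polymerase its promoters, the polymerase-associated proteins and plastid RNases. It also held the nuclear-encoded RNA polymerases RPOTP and RPOTMP, and all 26 were tested in leaves. In *elp2-5* leaves 13 of 26 were lower than Col-0 and 1 higher in GC, and 13 and 1 in FT, against the 14.1% and 14.9% of all genes called lower. CSP41B, which binds and cuts plastid RNA, fell by 0.74 in GC, its relative CSP41A fell by 0.55, and RPOTMP (AT5G15700) rose by 0.45. FT against GC called 2 of the list lower in Col-0 leaves (CSP41B by 0.29 and PTAC7 by 0.23), 0 in *elp2-5* leaves, and 6 lower and 1 higher in *met1-7* leaves, among them CSP41B by 0.42. Over all genes 3.15%, 0.156% and 3.38% were lower in these flight comparisons and 8.71%, 0.644% and 9.53% higher. Over the list the median difference between *elp2-5* and Col-0 in GC leaves was −0.14. RBCS1A, the nuclear gene for a small subunit of Rubisco, had 15760 ± 1215 FPKM in Col-0 FT leaves and 19465 ± 907 in GC, and fell by 0.31 (SE 0.06, adjusted p = 0.00322), and it was lower in *elp2-5* GC leaves by 0.28 (adjusted p = 0.000658). It was the 1 of 8 leaf markers called in the Col-0 flight comparison. The list's median difference there was 0.01, and LHCA1 (0.24, adjusted p = 0.405) and CAB3 (0.16, adjusted p = 0.733), both light-harvesting proteins, had differences above 0. Of 63 mitochondria-encoded genes 11 were higher and 1 lower in *elp2-5* GC leaves, where 37.6% of all genes were higher and 14.1% lower.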

How the data were processed

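Poly(A)-selected, strand-specific paired-end libraries from 24 leaf and 24 root samples were sequenced by the authors, trimmed with Trimmomatic, aligned to TAIR10 with STAR and quantified with RSEM. The authors deposited FPKM per gene, in 1 table per organ. No counts were used here, so depth is unknown beyond the limited estimate of relative depth from low values.

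Differences were tested with limma 3.58.1 in R 4.3.3 on log2(FPKM + 0.5), with a trended, robust variance and 6 group means per organ (12 in the joint organ fit). The log2 differences understate the change of low genes. Genes with at least 1 FPKM in at least 4 libraries entered, and a gene was called at a Benjamini-Hochberg adjusted p below 0.05 over all genes tested. The code was tested on simulated data. The DEG rule adds a 2-fold minimum and FPKM above 0 in a replicate of both groups. The 4 replicates of a group are pools of plants from different plates of 1 flight or 1 ground run, so p-values measure the spread between those pools.

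The members, lists and tests were chosen with earlier results of these data known. Named members were to be the 2 highest per functional class and up to 5 called rises and 5 falls per comparison, plus interaction calls. Without a map from ID to class, the highest members of each organ were named instead, with mostly 2 rises and 2 falls and the IDs that carry a note, a change made after values were seen. Alternatives were another pseudocount, no filter, 2 other scalings, the DEG rule, a replicate term, only the libraries compared, and each library left out. Tables were read with Python 3.11.15, pandas 2.3.3 and numpy 2.4.6.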

Additional observations from a re-analysis of the deposited data

Results flagged for a closer look

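Within groups of 4 libraries, the gap of the most extreme library to its neighbour was compared with Dixon's critical value for the summed member FPKM and the named members. Of 71 groups checked, 8 went past the limit. The limit is meant to be passed by about 1 in 20 separate groups. These groups shared libraries and mostly came from called members, so their number was not set against chance. The summed FPKM was high in Col-0 leaves FT replicate 1 (26336.6), *met1-7* leaves FT replicate 1 (28137.0) and *elp2-5* roots GC replicate 2 (3707.0). The same root library was high for ATCG00790 (702.31 FPKM). Single libraries also stood apart for ATCG00360 in *elp2-5* leaves GC replicate 2 (0.47 FPKM), ATCG00020 in *met1-7* leaves FT replicate 4 (93.35 FPKM), ATCG00440 in Col-0 leaves GC replicate 1 (108.88 FPKM) and ATCG01010 in *met1-7* roots FT replicate 4 (3.92 FPKM). The flight response of ATCG00040 differed between *elp2-5* and Col-0 leaves by 0.97 on the log2 scale, by the limma test of that difference.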

How the results depend on the processing

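Directions under the alternatives were compared only for called members followed one by one, up to 2 rises and 2 falls per comparison. No direction of these reversed, and the other called members were not followed. Log2 ratios of the sums near 0 changed sign when 1 library was left out: −0.051 to 0.003 for *met1-7* leaves and −0.023 to 0.069 for *met1-7* roots FT against GC, −0.079 to 0.044 for *elp2-5* against Col-0 in FT leaves, and for *met1-7* against Col-0 −0.089 to 0.041 in GC leaves, −0.112 to 0.011 in GC roots and −0.008 to 0.084 in FT roots. The sum ratio of *met1-7* roots FT against GC also changed sign with median-ratio scaling (−0.008), and that of *elp2-5* against Col-0 in FT leaves without the 3 highest members (0.086). Of 233 values under settings other than leaving out a library, 187 moved by no more than 1.5 times (counts) or 1 SD (sums). Under the DEG rule the count of members was 0 for FT against GC in leaves of all 3 genotypes and in *elp2-5* roots, 0 for the difference in response of *elp2-5* leaves, 4 and 2 for *elp2-5* against Col-0 leaves in GC and FT, 1 and 1 for *met1-7* leaves, and 0 in roots of both mutants. With no filter it was 4 (Col-0), 2 (*elp2-5*) and 2 (*met1-7*) for FT against GC in leaves, 0 for the *elp2-5* leaf response, 0 for *elp2-5* roots FT against GC, 5 for *elp2-5* and 1 for *met1-7* against Col-0 roots in GC. Median-ratio scaling gave 19 for Col-0 leaves FT against GC and 2 for the *elp2-5* leaf response, scaling to the nuclear sum gave 1 for *elp2-5* roots FT against GC, and a pseudocount of 1 FPKM gave 1 for *met1-7* against Col-0 roots in GC. In fits of only the 8 libraries compared it was 0 and 1 for FT against GC in Col-0 and *elp2-5* leaves, 2 and 0 in Col-0 and *elp2-5* roots, 7 for *elp2-5* against Col-0 in FT in leaves and 7 in FT roots, 1 in GC roots, and for *met1-7* 2 in FT leaves and 0 in GC roots. For these the cause was not tested, apart from the fewer samples or added genes that the setting itself brings.

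Leaving out 1 library gave 1 to 21 members for Col-0 leaves FT against GC, 1 to 5 for *elp2-5* leaves, 2 to 6 for *met1-7* leaves and 0 to 2 for *elp2-5* roots. It gave 0 to 4 for the *elp2-5* leaf response, 4 to 10 for *met1-7* against Col-0 in FT leaves, 1 to 2 in GC roots, and for *elp2-5* against Col-0 5 to 12 in GC roots and 2 to 4 in FT roots. As log2 ratios, the sums changed to −0.102 (*met1-7* leaves FT against GC), −0.608 and −0.16 (*elp2-5* against Col-0 leaves in GC and FT) and, for leaves against roots, 3.659 (Col-0), 3.401 (*elp2-5*) and 3.736 (*met1-7*) with median-ratio scaling, to 2.993 and 3.12 (organs, Col-0 and *met1-7*) with the nuclear sum, and to −0.162 (*elp2-5* against Col-0 in FT roots), 2.912 and 3.017 (organs, Col-0 and *met1-7*) without the 3 highest members, an alternative added after seeing the data, as was summing the equal-valued pairs. Sums without rRNA and tRNA genes were not run, since the IDs carry no class here.

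Same-numbered libraries did not deviate together (median r of −0.012 in leaves and 0.002 in roots over 60 pairs each). With a replicate block 3 members were called for *met1-7* leaves FT against GC in place of 5, 1 for *met1-7* against Col-0 roots in GC in place of 2, and no other count moved by over 1.5 times. Of 672 values for the members followed one by one, 579 kept their call and 93 lost it. FPKM without counts leave the precision of low members unknown.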
